A study of Drosophila melanogaster with 3 samples.

Results

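A set of 10 genes of fat body storage and lipid mobilization was followed in heads of adult Drosophila melanogaster: the storage protein genes Lsp2, Lsp1beta and Fbp1, the lipoprotein gene apolpp, the lipid droplet genes Lsd-1 and Lsd-2, the hormone gene Akh with its receptor gene AkhR, and the lipase genes bmm and Lip4. Each gene was taken by its symbol in the platform's gene table, from probe sets that name a single gene, and a gene with several such probe sets was represented by the brightest. Of the 10 genes, 9 had a probe set, among 11981 genes named on the array. Lsp1beta had none under its symbol, alone or with other genes, and was not analysed here. Signals of 7 genes lay in the upper 50% of named genes by mean log2 signal, the range in which 5991 genes were compared, and those of Akh and Fbp1 lay at background.

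The fat body is the insect organ of storage and intermediary metabolism, and adult flies have it in the head as well as in the abdomen. It secretes storage proteins and lipoproteins into the blood and keeps triacylglycerol in droplets coated with perilipins. When energy is needed, adipokinetic hormone (AKH) from the corpora cardiaca, glands beside the foregut, binds its receptor on fat body cells, and cAMP, protein kinase A (PKA) and calcium signals then open the droplets to lipases.

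RNA came from whole heads, with 1 array for each of 3 genotypes. PKA-CA flies carried p247-Gal4 and tub-gal80[ts] with UAS-PKA-CA, a constitutively active PKA, PKA-DN flies carried the same driver and repressor with UAS-PKA-DN, a dominant-negative PKA, and control flies carried the driver and repressor (p247-Gal4,tub-gal80[ts]/+) with no PKA transgene. Flies grew at 18 °C, and the repressor was inactivated by keeping adults at 32 °C for 12 to 16 h; the labels give an age of 4 to 6 days. The driver is described as acting in the mushroom bodies, brain centres of olfactory memory, so the transgenes were aimed at neurons while the genes described here are mostly those of another head tissue. In the design text, raised and lowered activity are matched to the transgenes in the reverse of their names; PKA-CA is taken here as the form that raises activity and PKA-DN as the form that lowers it. PKA activity was not measured in these data, and the sources used here give neither the sex nor the number of flies behind an array.

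A single array per genotype leaves no replicate error and allows no test, and every difference also holds any difference between fly collections, extractions and hybridizations. The trimmed mean signal was 500 on each array. The highest signal among 99 control probe sets that served as a gauge of background was 70.9 for PKA-CA, 77.8 for PKA-DN and 77.0 for the control. Over the 5991 compared genes, log2 signals of pairs of arrays correlated at 0.978 to 0.983 (across genes, which are not independent replicates). The bright end of the range was lower on the transgene arrays: the highest signal was 27694 in PKA-CA and 31868 in PKA-DN, against 38916 in the control. Ratios of 3′ to 5′ probe sets, a sign of RNA length, were 2.05 or below for GAPDH on all arrays, and the other genes gave no common order. For eIF-4a the ratio was 3.01 in PKA-CA and 2.33 in PKA-DN, against 2.51 in the control, and for actin it was 1.70 in PKA-CA and 2.29 in PKA-DN, against 1.79 in the control.

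**Figure D1:**
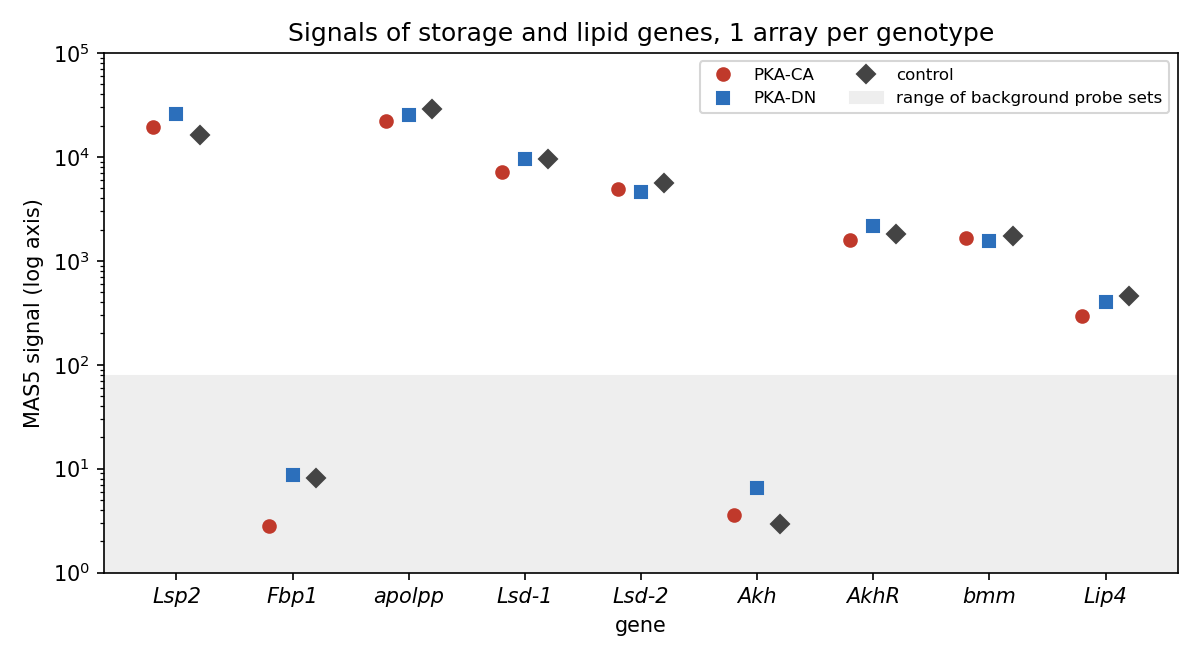
MAS5 signal on a log axis (y) of the 9 genes with a probe set (x), 1 point per array, with PKA-CA as circles, PKA-DN as squares and control as diamonds; the grey band ends at the highest background signal of any array. Akh and Fbp1 lie inside the band on all 3 arrays, and the other 7 genes lie above it.

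Lsp2 was the member furthest from the control in PKA-DN heads. It encodes a hexamerin, a storage protein that fat body cells release into the blood and later take back. Its signal (probe set 1641634_at, gene CG6806) was 19498 in PKA-CA heads and 25980 in PKA-DN heads, against 16269 in control heads, so both transgene arrays were above the control. The PKA-DN signal was 1.60-fold that of the control, a log2 ratio of 0.68. The log2 ratio of PKA-CA over control was 0.26, and that of PKA-CA over PKA-DN was -0.41. Among all compared genes, 1.94% lay as far from the control as Lsp2 or farther in PKA-DN, counting both directions, and 25.9% did so in PKA-CA. Quantile normalization, which gives all arrays the same range, placed Lsp2 farther from the control, at 0.47 in PKA-CA and 0.79 in PKA-DN; with cyclic loess these values were 0.36 and 0.69, and with centred arrays 0.23 and 0.68.

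Fbp1, which encodes the receptor for hexamerin uptake in the larval fat body, gave signals of 2.84 in PKA-CA heads, 8.64 in PKA-DN heads and 8.09 in control heads. All were far below the highest background signal, so Fbp1 was not detectable on any array and no fold is given. Its larval companion gene Fbp2 was also within background, at 7.53 in PKA-CA, 23.0 in PKA-DN and 19.6 in the control. Of the storage protein genes, Lsp2 alone was measurable here, and Lsp1alpha and Lsp1gamma, like Lsp1beta, were not analysed.

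The lipoprotein gene apolpp encodes the precursor of the apolipophorins, the scaffold of the particle that carries lipid between fly tissues. Its signal (1637843_at, CG11064) was 22162 in PKA-CA heads and 25278 in PKA-DN heads, against 29197 in control heads. Both transgene arrays were below the control, with log2 ratios of -0.40 in PKA-CA and -0.21 in PKA-DN. These ratios depended on the scaling: they were -0.08 and -0.02 under quantile normalization, -0.29 and -0.19 with cyclic loess, and -0.43 and -0.20 with centred arrays. The gene lies at the bright end, where the arrays differ in range.

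The perilipin genes had different patterns. Lsd-1 encodes the perilipin that PKA phosphorylates, and that controls access of lipases to the droplet surface. Its signal (1636510_a_at, CG10374) was 7106 in PKA-CA heads and 9637 in PKA-DN heads, against 9550 in control heads: PKA-DN and control were nearly the same, and PKA-CA alone was lower. The log2 ratio over control was -0.43 in PKA-CA and 0.01 in PKA-DN, and PKA-CA over PKA-DN was at -0.44. Between 9.16% and 9.58% of compared genes lay as far from 0 or farther in the comparisons with PKA-CA on top. Lsd-2 encodes the perilipin that shields stored fat from lipases. Its signal (1637359_at, CG9057) was 4918 in PKA-CA heads and 4547 in PKA-DN heads, against 5558 in control heads. Here the lowest signal was that of PKA-DN, and the log2 ratios over control were -0.18 in PKA-CA and -0.29 in PKA-DN.

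The hormone gene Akh was not detectable. Its signal (1631816_at, CG1171) was 3.56 in PKA-CA heads, 6.55 in PKA-DN heads and 2.92 in control heads, all inside the background range. Lst encodes limostatin, another peptide known from the AKH-producing cells, and was well above background on every array, at 3285 in PKA-CA, 2147 in PKA-DN and 2769 in the control. Its log2 ratio of PKA-CA over PKA-DN was 0.61.

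AkhR encodes the G protein-coupled receptor for AKH on fat body cells. Its brightest probe set (1635442_a_at, CG11325) had a signal of 1583 in PKA-CA heads and 2167 in PKA-DN heads, against 1827 in control heads. The control thus lay between the transgene arrays, with log2 ratios of -0.21 for PKA-CA and 0.25 for PKA-DN. PKA-CA over PKA-DN had a log2 ratio of -0.45, and 8.85% of compared genes differed at least as far. The second probe set for the gene (1629609_at) did not show this order. It had signals of 85.7 in PKA-CA, 85.0 in PKA-DN and 82.0 in the control, just above the highest background signal, with a log2 ratio of 0.01 for PKA-CA over PKA-DN.

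The lipase genes of the set, bmm and Lip4, were lower on both transgene arrays than on the control array, in part by small steps. Brummer (bmm) encodes the fly triacylglycerol lipase of the droplet surface, the relative of mammalian ATGL. Its signal (1640754_at, CG5295) was 1676 in PKA-CA heads and 1542 in PKA-DN heads, against 1740 in control heads, which were the closest values of any compared member. The log2 ratios over control were -0.05 in PKA-CA and -0.17 in PKA-DN. Of all compared genes, 81.0% lay as far from the control as bmm or farther in PKA-CA, and 38.3% in PKA-DN. Lip4 encodes a member of the lipase family. Its signal (1624505_at, CG6113) was 292 in PKA-CA heads and 404 in PKA-DN heads, against 463 in control heads. PKA-CA was lowest, 1.58-fold below the control, with log2 ratios over control of -0.66 in PKA-CA and -0.19 in PKA-DN, while PKA-CA over PKA-DN was at -0.47. Of all compared genes, 2.25% were as far from the control as Lip4 or farther in PKA-CA, and 33.8% in PKA-DN. Lip4 was the dimmest compared member, and its log2 ratio in PKA-CA was -0.56 when 64 was added to each signal, inside 1.5-fold.

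PKA-CA over control set heads with the active PKA transgene against heads with no PKA transgene. It therefore also holds any effect of carrying a transgene, apart from raised PKA activity. Lip4 was the single compared member past 1.5-fold, in the lower direction, while the share of all compared genes past 1.5-fold was 3.61% either way, with 1.72% higher and 1.89% lower. In the 25 to 50% step of named genes by signal, where Lip4 lies, the share was 5.08% either way. By sign, 1 member was higher (Lsp2) and 6 were lower (apolpp, Lsd-1, Lsd-2, AkhR, bmm and Lip4), with a median log2 ratio of -0.21. All 5991 compared genes had a median of -0.003, and 3028 of them were lower. Among the brightest 5% of named genes, which hold 4 of the 7 members, 60.3% were lower and the median was -0.06.

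PKA-DN over control set heads with the dominant-negative transgene against the same control, with the same limit. Lsp2 was the single compared member past 1.5-fold, in the higher direction, where 2.92% of all compared genes passed either way, 1.49% higher and 1.44% lower. Lsp2, AkhR and Lsd-1 were above the control and the other 4 below it, with a median of -0.17, which was -0.02 under quantile normalization. Over all compared genes the median was -0.01.

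PKA-CA over PKA-DN sets the active form against the dominant-negative one without the control array. No compared member was past 1.5-fold in it, where 4.22% of all compared genes were either way. Lip4, AkhR, Lsd-1 and Lsp2 lay close together, between -0.47 and -0.41 on the log2 scale, and apolpp was at -0.19. In the other direction, bmm and Lsd-2 were at 0.12 and 0.11. The median was -0.41, against 0.001 over all compared genes, and it was -0.22 when probe sets were averaged, which changes AkhR alone. By array, PKA-CA held the lowest signal of 4 members and the highest of none. PKA-DN held the lowest of 2 and the highest of 3, and the control held the lowest of 1 and the highest of 4. The transgene arrays are compared with the same control array, so their ratios over it are not independent. Likewise, both comparisons with PKA-CA on top use the same PKA-CA array.

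**Figure D2:**
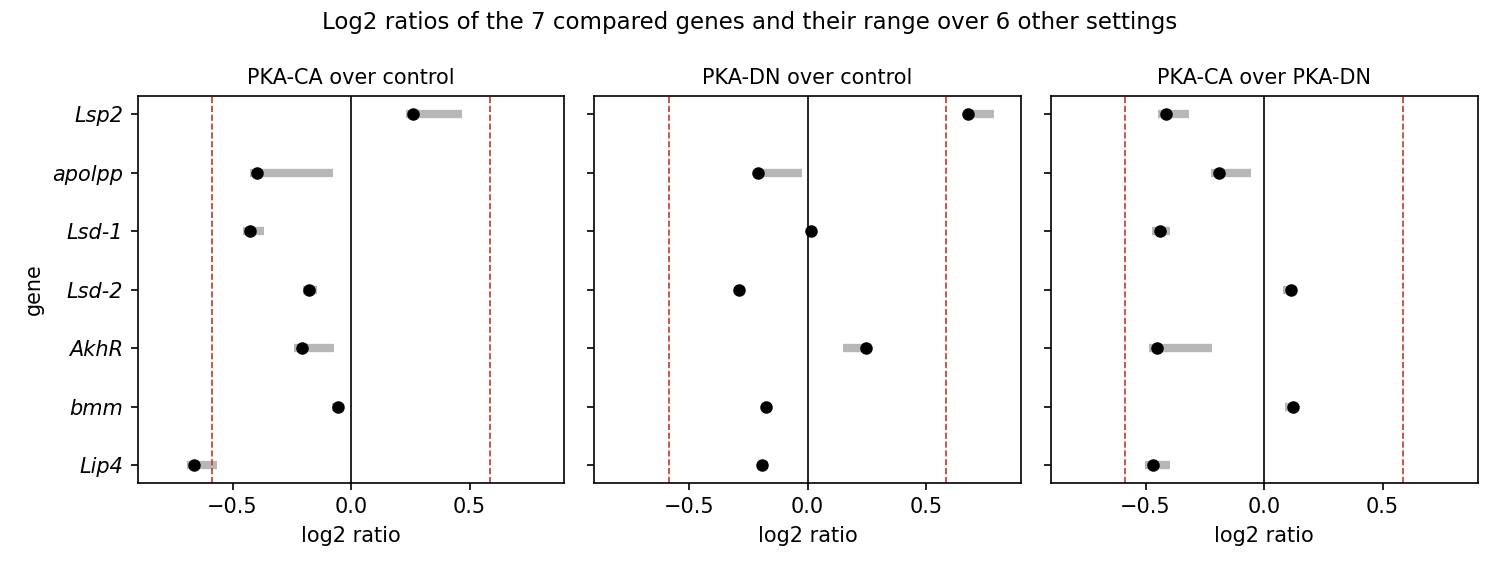
Log2 ratio (x) of the 7 compared genes (y) in the 3 comparisons; points are the values as deposited, grey bars span the lowest and highest value over these and 6 other settings of scaling, added constant or probe set, and dashed lines mark 1.5-fold. Lip4 passes the line in PKA-CA over control and Lsp2 in PKA-DN over control, and the bars are longest for apolpp, AkhR and Lsp2.

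**Figure D3:**
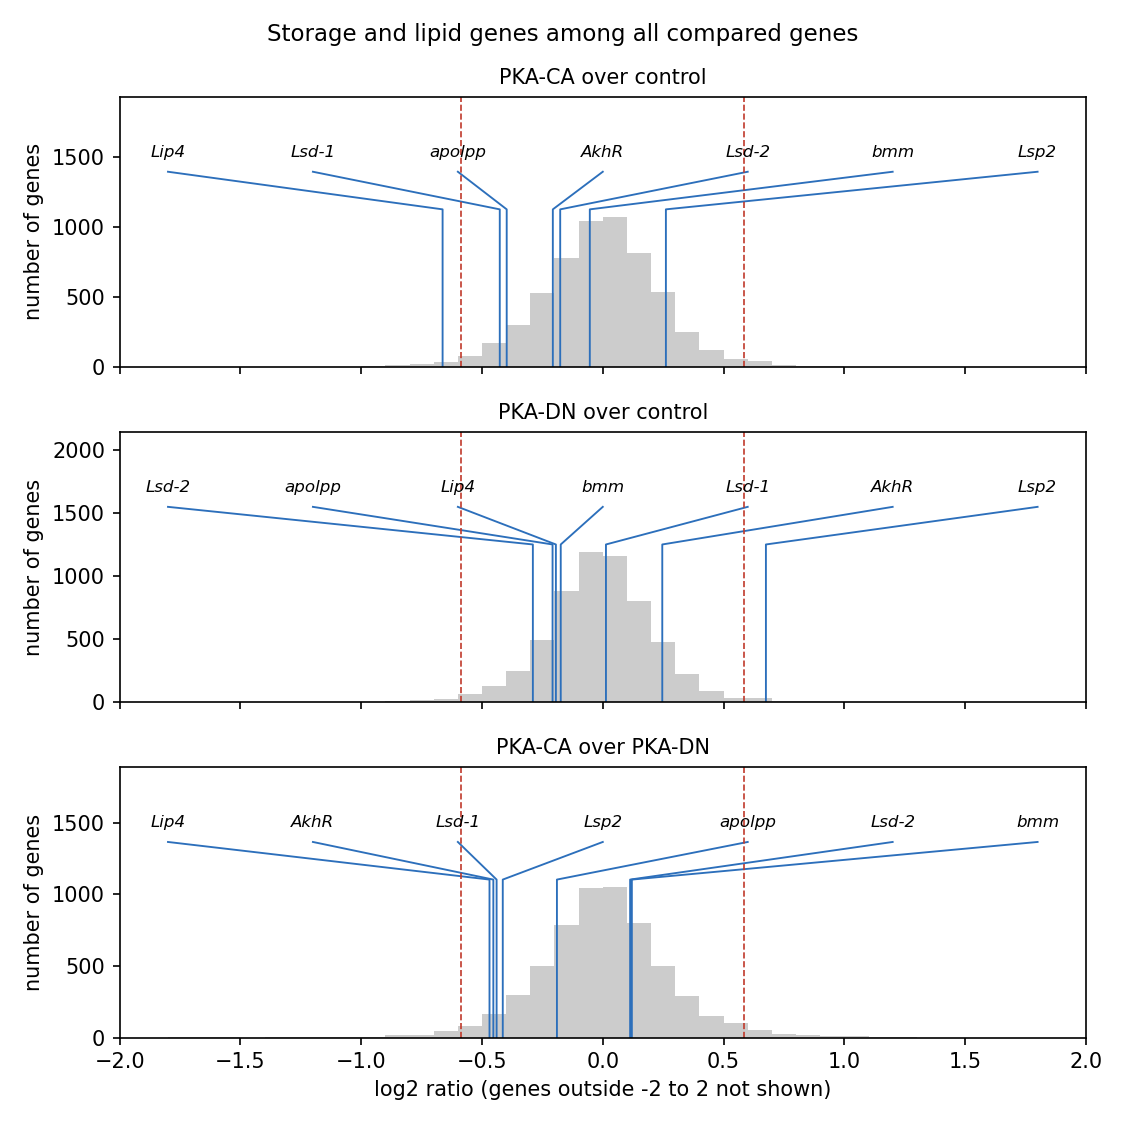
Number of compared genes (y) by log2 ratio in steps of 0.1 (x) for each comparison, with lines at the values of the 7 genes and dashed lines at 1.5-fold. In PKA-CA over PKA-DN, Lip4, AkhR, Lsd-1 and Lsp2 sit together between -0.47 and -0.41, and most members in all panels lie within the bulk of genes.

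Other genes of lipid and sugar storage were taken from 7 lists with 52 names; a probe set was found for 44, and 37 were compared. None of the 37 was 1.5-fold or more above the control in PKA-CA and 2 were below by as much; in PKA-DN the numbers were 0 and 1. Between the transgene arrays, 3 genes were lower in PKA-CA by 1.5-fold or more and none was higher. These are counts of 2, 1 and 3 of 37, where 3.61%, 2.92% and 4.22% of all compared genes passed in the same comparisons. Median log2 ratios over control were -0.14 in PKA-CA and 0.007 in PKA-DN. PKA-CA over PKA-DN had a median of -0.24, with 28 of 37 below 0. Of all 5991 compared genes, 2982 were below 0 in it, with a median of 0.001. Among the brightest 5% of named genes, 62.0% were below 0 and the median was -0.05.

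The compared genes of triacylglycerol synthesis and lipid droplets were lower in PKA-CA by sign, mostly by small steps. All 8 compared genes (Lpin, mdy, Gpat4, Agpat3, Seipin, Jabba, Cds and CCT1) had lower signals in PKA-CA than in the control and than in PKA-DN. This was also so under quantile normalization, cyclic loess and centring of the arrays, but 7 of the genes were lower by less than 1.5-fold. Both comparisons use the same PKA-CA array, so they are not independent. Their median log2 ratio over control was -0.33 in PKA-CA and 0.04 in PKA-DN. The gene past 1.5-fold was Jabba, which encodes the protein that anchors histones to lipid droplets. Its signal was 3006 in PKA-CA heads and 5306 in PKA-DN heads, against 4833 in control heads. Jabba was thus low in PKA-CA alone, with log2 ratios of -0.69 over control and -0.82 over PKA-DN. Within 1.5-fold, mdy, which encodes the acyltransferase DGAT1, was at -0.46 in PKA-CA over control, and CCT1 at -0.41. CCT1 was matched to the list by symbol alone. Whether it is the phosphatidylcholine synthesis gene that the list meant was not checked, so its place in the list is uncertain. Dgat2, also on the list, lay below the compared range and did not share this order. Its signal of 112 in PKA-CA was above the control at 78.9, a log2 ratio of 0.50, and below PKA-DN at 462. The control signal was close to background.

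Mitochondrial fatty acid oxidation genes were also lower in PKA-CA, although none of the 5 compared passed 1.5-fold. Their median log2 ratio over control was -0.36 in PKA-CA, with all 5 below 0, and -0.15 in PKA-DN, with 4 below 0. Of all compared genes, 50.5% were below 0 in PKA-CA and 51.7% in PKA-DN. Among the brightest 5% of named genes these shares were 60.3% and 56.5%. Among lipases and fatty acid carriers, Lip2, a lipase family gene, had a signal of 194 in PKA-CA and 324 in PKA-DN, against 292 in the control. Its log2 ratio of PKA-CA over control was -0.59, just past 1.5-fold, and -0.56 under quantile normalization, just inside it; PKA-CA over PKA-DN was -0.74. The fatty acid binding protein gene fabp had -0.31 in PKA-CA and -0.06 in PKA-DN over control.

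Lipoprotein and lipocalin genes were split. GLaz and NLaz encode lipocalins, secreted carriers of small lipids. GLaz had a signal of 838 in PKA-CA and 1274 in PKA-DN, against 1150 in the control, and was past 1.5-fold in PKA-CA over PKA-DN at -0.61, but not with 64 added to each signal, at -0.57. NLaz had 963 in PKA-CA and 766 in PKA-DN, against 1284 in the control, and was past 1.5-fold in PKA-DN over control at -0.74. The other 5 compared genes of the list, among them the lipophorin receptor genes LpR1 and LpR2 and the lipid transfer protein gene Mtp, were within 1.5-fold in every comparison.

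No gene of AKH signalling and its effectors passed 1.5-fold in the deposited values. Orai, a store-operated calcium channel gene, came closest, at -0.56 in PKA-CA over PKA-DN, and passed it under quantile normalization (-0.60) and with centred arrays (-0.59). The 10 compared genes had median ratios over control of 0.05 in PKA-CA and 0.01 in PKA-DN. PKA-CA over PKA-DN had a median of 0.04, with 5 genes on each side of 0. They ranged over control from -0.25 to 0.27 in PKA-CA and from -0.21 to 0.47 in PKA-DN, where foxo, a transcription factor gene of the fasting response, was highest. PKA-CA over PKA-DN ranged from -0.56 to 0.31. Glycogen and trehalose genes were likewise within 1.5-fold, with median ratios over control of -0.13 in PKA-CA and 0.03 in PKA-DN for 5 compared genes.

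**Figure D4:**
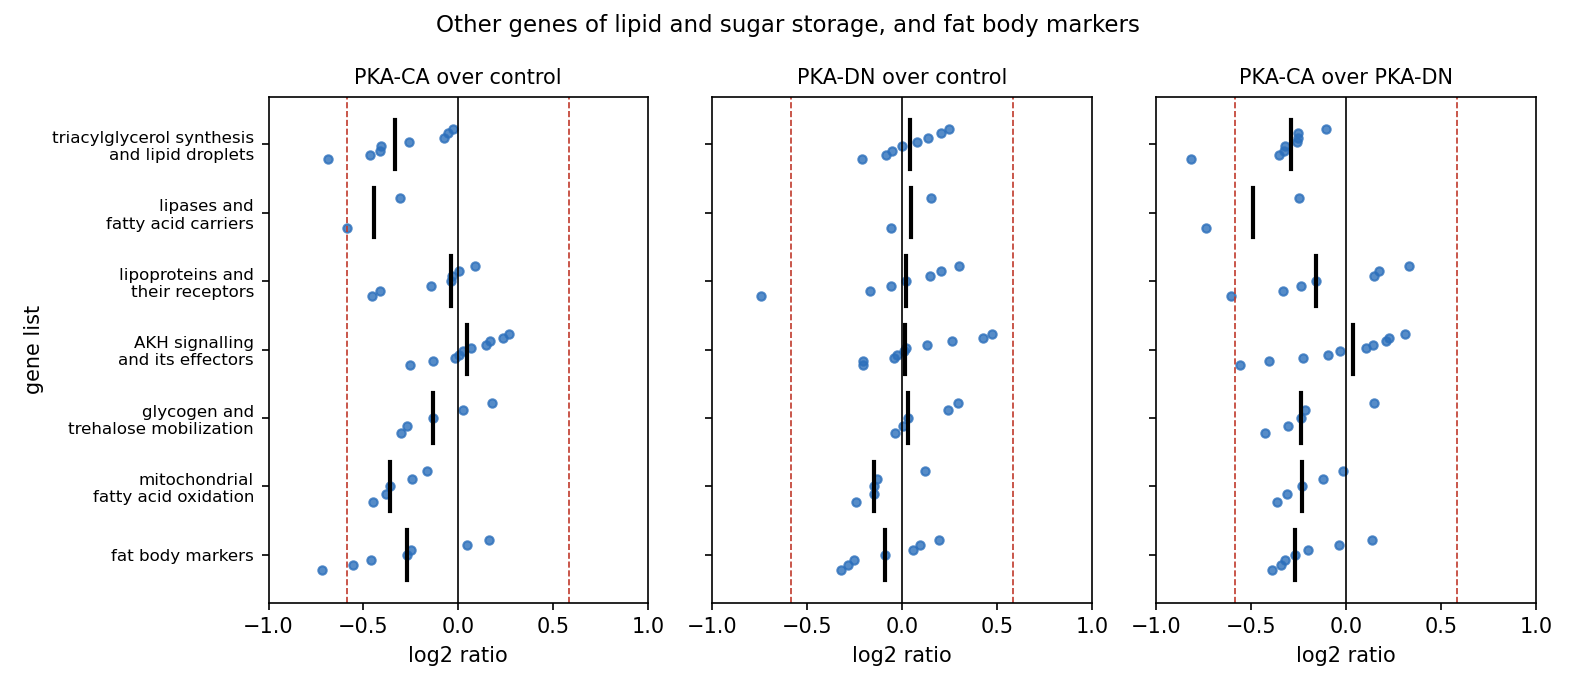
Log2 ratio (x) of each compared gene, by list (y), in the 3 comparisons; black bars are list medians, dashed lines mark 1.5-fold, and height within a list only separates points. All 8 compared genes listed for triacylglycerol synthesis and lipid droplets lie below 0 in both comparisons with PKA-CA on top, which share the PKA-CA array. CCT1 is among them by symbol alone. The AKH signalling genes lie on both sides of 0. Dgat2, below the compared range, is not shown.

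Markers of fat body that are not among the 10 genes were read beside these values. All 7 with a probe set (fit, Yp1, Yp2, Yp3, Tsf1, Obp99b and Hex-C) were far above background, and their summed signal was 118033 in PKA-CA and 139893 in PKA-DN, against 153197 in the control. Their median log2 ratio over control was -0.27 in PKA-CA, with 5 of 7 lower, and -0.09 in PKA-DN, with 4 of 7 lower. These medians were -0.06 and 0 under quantile normalization, -0.19 and -0.08 with cyclic loess, and -0.30 and -0.08 with centred arrays. Among the brightest 5% of named genes, 60.3% were below the control in PKA-CA and 56.5% in PKA-DN. The summed signal leans on the yolk protein genes Yp1, Yp2 and Yp3, the brightest markers in the control. Their log2 ratios over control were -0.56, -0.46 and -0.72 in PKA-CA, and -0.29, -0.26 and -0.33 in PKA-DN. Ratios of the other markers ranged from -0.27 to 0.16 in PKA-CA and from -0.09 to 0.19 in PKA-DN, with fit highest in both. The yolk protein gene Yp3 was the marker past 1.5-fold, at 19322 in PKA-CA and 25363 in PKA-DN, against 31774 in the control, and its log2 ratio of -0.72 for PKA-CA over control was -0.61 with cyclic loess and -0.39, inside 1.5-fold, under quantile normalization. The share of fat body RNA in the heads was not measured apart from these markers, and in whole heads fewer cells of a type and less RNA per cell cannot be told apart. The sex of the flies is not given in the sources used here, and its part in these marker values was not tested.

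Markers of other tissues also differed between the arrays, and their part in the values above was not tested. Photoreceptor and neuronal markers, which identify head tissue, were above background on all arrays. The summed signal of the 3 photoreceptor markers (trp, Arr1 and Arr2) had the same order as that of the fat body markers. It was 59776 in PKA-CA and 63402 in PKA-DN, against 70519 in the control. All 3 were below the control on both transgene arrays as deposited, with median log2 ratios of -0.17 and -0.09. These signs depended on the scaling. Under quantile normalization, 3 of 3 were above the control in PKA-CA and 2 of 3 in PKA-DN, with medians of 0.05 and 0.006. With cyclic loess, 1 of 3 was above the control in PKA-CA, and the medians were -0.08 and -0.07. The 4 neuronal markers had a median log2 ratio of 0.31 for PKA-CA over PKA-DN, from 0.04 for nSyb to 0.60 for elav. The elav ratio was inside 1.5-fold with cyclic loess (0.57), centred arrays (0.56) and 64 added to each signal (0.53). Of the muscle markers, Prm was at 2557 in PKA-CA and 2286 in PKA-DN, against 1469 in the control, and up at 1046 in PKA-CA and 688 in PKA-DN, against 571 in the control. Act88F was near background, at 68.1 in PKA-CA and 70.0 in PKA-DN, against 87.0 in the control. Of the blood cell markers, PPO2 was at 663 in PKA-CA and 631 in PKA-DN, against 1824 in the control, and PPO1 at 405 in PKA-CA and 409 in PKA-DN, against 1041 in the control. Hml, also a blood cell marker, was within 1.5-fold, at 839 in PKA-CA and 676 in PKA-DN, against 885 in the control. Of the oenocyte markers, Cyp4g1 was near background in PKA-CA, at 76.0, with 541 in PKA-DN and 766 in the control, while Desat1 was within 1.5-fold.

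Lsp2, the member with the largest log2 ratio over control on either transgene array, was set against all compared genes by the distance between their log2 ratios over control in PKA-CA and PKA-DN. The 5 nearest were Svil, yellow-b, CG8366, serp and CG5773, at distances of 0.03 to 0.05 on the log2 scale. Svil, an actin-binding protein gene of the villin family, had 0.28 in PKA-CA and 0.66 in PKA-DN, and serp, which encodes a chitin deacetylase, had 0.25 in PKA-CA and 0.64 in PKA-DN. With 2 ratios per gene over a shared control array, such likeness is a description only.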

How the data were processed

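The deposited values were linear array intensity, 1 MAS5 signal per probe set (18952 on each array), which the submitters' processing notes credit to MAS5; its version is not given in the sources used here. They were used as deposited. Their log2 was taken with no constant, and fold changes are differences of log2 signals.

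Of 14049 probe sets in the platform's gene table, 13646 had 1 symbol, 402 several and 1 none. Symbols were updated through RefSeq gene IDs (Release 6 plus ISO1 MT) for 13543 of them, and 103 kept the table's symbol. The upper 50% of genes by mean log2 signal was compared, from a mean signal of 254. The background gauge was the array's control probe sets for Drosophila, taken as negative controls, without 1 whose signal exceeded 1000. A gene was counted as past a fold at 1.5. No test was possible with 1 array per group, and the number of arrays limits precision. Steps were tested on simulated data.

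The genes and lists were chosen with earlier results of these data known, and the brightness steps after seeing the values. Named genes are the 10 members, list genes past 1.5-fold in any comparison, marker genes, some list genes within 1.5-fold as examples chosen after their values were seen, and the 5 compared genes nearest to the member farthest from the control. The alternatives were quantile normalization, cyclic loess (limma 3.58.1), centring, added constants of 16 and 64, averaged probe sets, other signal filters and a 2-fold threshold.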

Additional observations from a re-analysis of the deposited data

How the results depend on the processing

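No sign of a compared member changed in 126 recomputed log2 ratios under other scalings, added constants and averaged probe sets. Many of these values could not have changed sign, because an added constant keeps the sign and averaging probe sets changes AkhR alone. Signs were open to change only under the other scalings and, for AkhR, with averaged probe sets. Of the 126 values, 8 moved by more than 0.1, for AkhR, Lsp2 and apolpp. The median of PKA-DN over control was 0.0131 with no signal filter, which adds Akh and Fbp1 at background and turns its sign, and -0.0240 under quantile normalization. That of PKA-CA over PKA-DN was -0.22 with averaged probe sets and -0.30 in the upper 25% by signal, where Lip4 is left out. Members past 1.5-fold with no filter numbered 2 in each comparison, Akh or Fbp1 among them each time, where 23.6 to 25.7% of all genes passed. In PKA-CA over control the count was 0 with 64 added, in the upper 25% and at 2-fold, and in PKA-DN over control it was 0 at 2-fold. Genes of the wider lists past 1.5-fold with no filter numbered 9 in PKA-CA over PKA-DN and 7 in each comparison with the control, and 0 in all 3 at 2-fold. In PKA-CA over control the number was 1 with 16 or 64 added, with cyclic loess, with quantile normalization and in the upper 25%; in PKA-DN over control it was 2 with averaged probe sets. In PKA-CA over PKA-DN, GLaz was no longer among them with 64 added (-0.57), and Orai joined them under quantile normalization (-0.60) and with centred arrays (-0.59). The cause of these changes was not tested beyond the filters' and thresholds' own construction. No paired analysis was possible because each group has 1 array, and no replicate could be left out. Genes near background, such as Akh, Fbp1 and the second AkhR probe set, have no reliable fold at these signals.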

Other observations

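Among the wider lists, 2 genes below the compared range, yet above background on all 3 arrays, differed between arrays by more than any compared member, and they were chosen after their values were seen. Dgat2, which encodes an acyltransferase for the last step of triacylglycerol synthesis, had a signal of 112 in PKA-CA heads and 462 in PKA-DN heads, against 78.9 in control heads. PKA-DN was 5.86-fold above the control, but the control signal was close to the highest background signal, so the fold is imprecise, and the gene has 1 probe set. Karl, which encodes a lipocalin, had a signal of 366 in PKA-CA heads and 145 in PKA-DN heads, against 280 in control heads. Its log2 ratio over control was 0.39 in PKA-CA and -0.95 in PKA-DN, with PKA-CA over PKA-DN at 1.33, so the control lay between the transgene arrays.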
